A study of Mus musculus with 12 samples.

Results

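Ribonucleotide reductase and the enzymes that make thymidine monophosphate (dTMP) were followed through 7 genes in mouse peritoneal macrophages. The genes were Rrm1, Rrm2 and Rrm2b for the reductase, and Tyms, Dut, Dctd and Dtymk for dTMP and its first phosphorylation. They were chosen by symbol, as the route of deoxynucleotide synthesis that works against SAMHD1, and not by their values. All 7 of them were among the 33641 genes of the processed tables, and all 7 were among the 15130 genes with enough reads to test. RNA-seq of total RNA had been made from macrophages of 4 genotypes, SAMHD1 MDA5 DKO (lacking both genes), SAMHD1 KO, MDA5 KO and WT, with 3 libraries each. All 12 libraries were of untreated cells at day 0, so the genotypes differ only in the targeted genes as far as the labels go. The alleles, the strain, age and sex of the mice, and whether libraries of 1 genotype stand for different mice, are not given in the sources used here. The p-values therefore measure only the spread between these libraries, which may be technical. The series title concerns the RNA sensor MDA5, the product of Ifih1, in cells that lack SAMHD1.

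Ribonucleotide reductase removes the hydroxyl group at the 2′ position of ribonucleoside diphosphates and so makes the precursors of all deoxynucleotides. Its large subunit, encoded by Rrm1, holds the catalytic and the regulatory sites, and a small subunit supplies the radical. Rrm2 encodes the small subunit of cycling cells, made in S phase and destroyed in mitosis and G1, while Rrm2b encodes the p53-inducible small subunit that serves resting and damaged cells. For dTMP, Dctd deaminates dCMP to dUMP, Dut hydrolyses dUTP to dUMP, Tyms methylates dUMP to dTMP, and Dtymk phosphorylates dTMP to dTDP. SAMHD1 acts at the other end of the pathway, as a hydrolase that cleaves deoxynucleoside triphosphates and keeps their pools low in resting cells such as macrophages.

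Depth ran between 33234361 reads (WT 3) and 58345425 reads (SAMHD1 MDA5 DKO 1). Levels are given as normalised reads, the whole reads of a gene divided by the size factor of the library, and differences as log2(normalised reads + 1) with the standard error (SE) of limma. The knockouts were checked first. Samhd1 had 4960.4, 3331 and 1747 normalised reads in SAMHD1 MDA5 DKO. The same count was 3689, 3253 and 2954 with SAMHD1 alone knocked out. It was 17462, 14952 and 16058 in MDA5 KO, while WT held 17124, 15524 and 7067. The 6 libraries lacking SAMHD1 by label lay below the other 6, with residual reads whose exons the gene totals do not show. Ifih1 had 6, 1 and 43 reads in SAMHD1 MDA5 DKO, and MDA5 KO had 1, 16 and 0. In normalised reads it stood at 3745, 3163 and 3172 in SAMHD1 KO, while WT had 3357, 2421 and 816. In limma Samhd1 passed in none of the 6 comparisons. It was at -1.91 ± 0.37 in SAMHD1 KO minus WT (limma adjusted p = 0.312) and -2.29 ± 0.37 in SAMHD1 KO minus MDA5 KO (adjusted p = 0.117). Ifih1 passed in MDA5 KO minus WT (limma adjusted p = 0.0499) and in both comparisons of an MDA5-lacking genotype with SAMHD1 KO. It missed in SAMHD1 MDA5 DKO minus WT, at -7.97 ± 1.15 (limma adjusted p = 0.0563). A member that did not pass is thus not shown to be unchanged. The macrophage markers (6 genes) and the large peritoneal macrophage markers (5 of 6 genes in the files) were present in all libraries, none of them at 0. WT 3 stood apart: its summed macrophage markers were 576229 normalised reads, against 1777040 to 5173610 in the other 11, and it was the highest of the 12 libraries in 31.4% of all genes tested and the lowest in 34.7%. Its summed large peritoneal macrophage markers went the other way, being the highest at 261940 against 178752 to 259781 in the other 11. WT 2 held the most B cell markers, 12500.4 normalised reads summed over 6 genes against 122 to 740.5 in the other 11, but was neither the highest nor the lowest library for any of the 7 members. It also held the most mast cell markers (12215 against 9.69 to 1422), T cell markers (337 against 4.88 to 77.4) and NK cell markers (79.1 against 0 to 32.5). WT 1 and WT 2 are the WT libraries left without WT 3. Differences from WT are given with and without WT 3. In bulk RNA such as this, fewer cells of a type and less RNA per cell cannot be told apart.

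The promoters of Rrm1, Rrm2, Dut and Tyms are shown because Rrm1, Rrm2 and Dut followed S phase genes closely across these libraries and Tyms did not once WT 3 was left out. They are RefSeq sequences on GRCm38.p6, running over 250 bases before and 50 after the start site. Capitals mark motif matches, on either strand. The motifs searched were E2F type (as TTCCCGC, as TTCGCGC, as TTGGCGC or as TTGCCGC), the CCAAT box (CCAAT) and YY1 type (AANATGGCG), the last of which was added after the sequences had been seen. Rrm1 lies on the plus strand, with its window at chr7:102441445-102441744, Rrm2 on the plus strand with its window at chr12:24708004-24708303, Dut on the plus strand with its window at chr2:125247265-125247564, and Tyms on the minus strand with its window at chr5:30073576-30073875. The start site of the window lies 325 bases from the gene start of the files for Dut, 13 for Rrm2 and 8 for Tyms.
Rrm1: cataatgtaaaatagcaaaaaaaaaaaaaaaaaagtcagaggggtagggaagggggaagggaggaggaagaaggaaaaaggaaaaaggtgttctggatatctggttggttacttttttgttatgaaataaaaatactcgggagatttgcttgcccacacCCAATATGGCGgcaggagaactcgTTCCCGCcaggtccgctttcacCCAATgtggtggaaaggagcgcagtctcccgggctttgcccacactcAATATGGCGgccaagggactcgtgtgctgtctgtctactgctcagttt
Rrm2: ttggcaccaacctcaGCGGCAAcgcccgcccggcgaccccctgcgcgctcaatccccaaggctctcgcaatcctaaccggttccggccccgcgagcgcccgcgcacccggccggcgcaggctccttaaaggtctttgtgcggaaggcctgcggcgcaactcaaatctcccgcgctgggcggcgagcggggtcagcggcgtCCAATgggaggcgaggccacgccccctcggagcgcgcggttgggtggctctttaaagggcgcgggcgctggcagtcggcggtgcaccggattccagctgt
Dut: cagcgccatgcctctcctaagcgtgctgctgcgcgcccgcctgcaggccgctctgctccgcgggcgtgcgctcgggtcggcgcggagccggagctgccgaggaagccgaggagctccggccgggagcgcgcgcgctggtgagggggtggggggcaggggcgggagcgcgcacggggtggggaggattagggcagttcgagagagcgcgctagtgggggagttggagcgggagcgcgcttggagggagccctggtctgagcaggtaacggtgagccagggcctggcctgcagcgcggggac
Tyms: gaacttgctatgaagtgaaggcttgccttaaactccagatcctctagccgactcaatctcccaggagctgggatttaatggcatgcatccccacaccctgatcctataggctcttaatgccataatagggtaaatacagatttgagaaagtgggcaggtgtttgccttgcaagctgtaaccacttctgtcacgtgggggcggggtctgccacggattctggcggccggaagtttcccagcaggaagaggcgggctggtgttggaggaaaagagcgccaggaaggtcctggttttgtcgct
Counted from the start site as position 0, the Rrm1 window held an E2F-type match at -67 to -61 and CCAAT boxes at -91 to -87 and -45 to -41. It also held YY1-type matches at -89 to -81, overlapping the first CCAAT box, and at 2 to 10. The Rrm2 window held an E2F-type match at -235 to -229 on the minus strand, read as GCGGCAA, and a CCAAT box at -50 to -46. In the Dut and Tyms windows none of these letters occurred. The Dut window lies wholly downstream of the gene start at 125247190, so the bases before that start were not searched. Among the other members with a window, Dtymk (chr1:93801885-93802184, minus strand) had TTGGCGC at -72 to -66 and an inverted CCAAT box at -112 to -108, while Dctd had none. Of 32851 promoters of this length, 9.57% held an E2F-type match, 37.4% a CCAAT box and 2.38% a YY1-type match. Windows were matched for 6 of the 7 members, not for Rrm2b. A match describes the letters of the window and not a bound site.

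Rrm1 (ENSMUSG00000030978, chromosome 7, 102441695 to 102469771, plus strand, GRCm38) encodes the large subunit. It had 1149, 1771 and 1849 normalised reads in SAMHD1 MDA5 DKO. The SAMHD1 KO libraries held 950.4, 1157 and 1219. In MDA5 KO it stood at 1643, 2589 and 2505, and in WT at 1747, 1539.7 and 4056. The 3 SAMHD1 KO libraries lay below every MDA5 KO and WT library, and overlapped only with SAMHD1 MDA5 DKO 1. Of all genes tested, 8.74% lay lower without overlap in SAMHD1 KO than in MDA5 KO, and 7.85% lower than in WT. WT 3 was the highest of all 12 libraries, 2.47 times the mean of the other WT libraries. By group mean Rrm1 stood at 1589.8 ± 383 in SAMHD1 MDA5 DKO, 1109 ± 141 in SAMHD1 KO, 2245 ± 524 in MDA5 KO and 2448 ± 1397 in WT (SD, n = 3 each). The difference of SAMHD1 KO minus WT was -1.01 ± 0.34 (SE), with an adjusted p of 0.312 by limma with Benjamini-Hochberg adjustment, and -0.56 ± 0.24 (adjusted p = 0.552) without WT 3. That of SAMHD1 KO minus MDA5 KO was -0.996 ± 0.34 (limma adjusted p = 0.483), and -0.99 ± 0.22 (adjusted p = 0.0780) without WT 3, so neither passed the threshold of 0.05.

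Rrm2 (ENSMUSG00000020649, chromosome 12, 24708241 to 24714146, plus strand) encodes the small subunit of cycling cells and varied more between libraries than Rrm1. It had 124, 402 and 324 normalised reads in SAMHD1 MDA5 DKO. In the libraries of SAMHD1 KO it had 41.6, 402 and 383. In those of MDA5 KO it had 514, 564 and 585, and in WT 253, 251 and 1855. The MDA5 KO libraries lay above all 6 libraries that lack SAMHD1 by label and above WT 1 and WT 2, but below WT 3. Of all genes tested, 8.74% lay lower without overlap in SAMHD1 KO than in MDA5 KO, and 4.1% in SAMHD1 MDA5 DKO. In MDA5 KO 18.3% lay above WT 1 and WT 2. SAMHD1 KO 1 was the lowest library. The spread within WT exceeded its mean (786 ± 926), while MDA5 KO was tight (555 ± 36.7), beside 283 ± 143 in SAMHD1 MDA5 DKO and 275 ± 203 in SAMHD1 KO (SD, n = 3 each). SAMHD1 KO minus MDA5 KO gave -1.57 ± 0.88 (SE), with a limma adjusted p of 0.575, and -0.50 without SAMHD1 KO 1. The difference of SAMHD1 MDA5 DKO minus MDA5 KO was -1.13 ± 0.88, with an unadjusted p of 0.225 in limma, and -0.62 without SAMHD1 MDA5 DKO 1.

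Rrm2b (ENSMUSG00000022292, chromosome 15, 37923952 to 37961318, minus strand) encodes the small subunit of resting and damaged cells, and its order across libraries was largely opposite to that of Rrm1. It had 961, 749 and 922 normalised reads in SAMHD1 MDA5 DKO. With SAMHD1 alone knocked out it had 925, 1434 and 1324. With MDA5 alone knocked out it had 944, 766 and 750.4, and in WT 1089, 992 and 628. SAMHD1 KO 2 and 3 were the highest of the 12 libraries and WT 3 was the lowest, the only member for which WT 3 was not the highest. SAMHD1 KO 1 lay among the libraries of the other genotypes. By group mean Rrm2b stood at 877 ± 113 in SAMHD1 MDA5 DKO, 1227 ± 268 in SAMHD1 KO, 820 ± 108 in MDA5 KO and 903 ± 243 in WT (SD, n = 3 each). SAMHD1 KO minus WT was 0.46 ± 0.25 (SE; limma adjusted p = 0.362) and 0.22 ± 0.20 without WT 3. The difference of SAMHD1 MDA5 DKO minus SAMHD1 KO was -0.47 ± 0.25 (limma adjusted p = 0.59), and -0.48 ± 0.18 (adjusted p = 0.194) without WT 3. SAMHD1 KO minus MDA5 KO was 0.56 ± 0.25 (limma adjusted p = 0.518), and 0.57 ± 0.18 (adjusted p = 0.169) without WT 3. The processed pseudogene Gm3362 overlaps the span of Rrm2b on the same strand, and had 15262 reads over the 12 libraries against 11756 for Rrm2b. Whether the authors' counting used strand is not given in the sources used here, and strand would not separate these genes. How reads that match both were assigned is not given either.

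**Figure D1:**
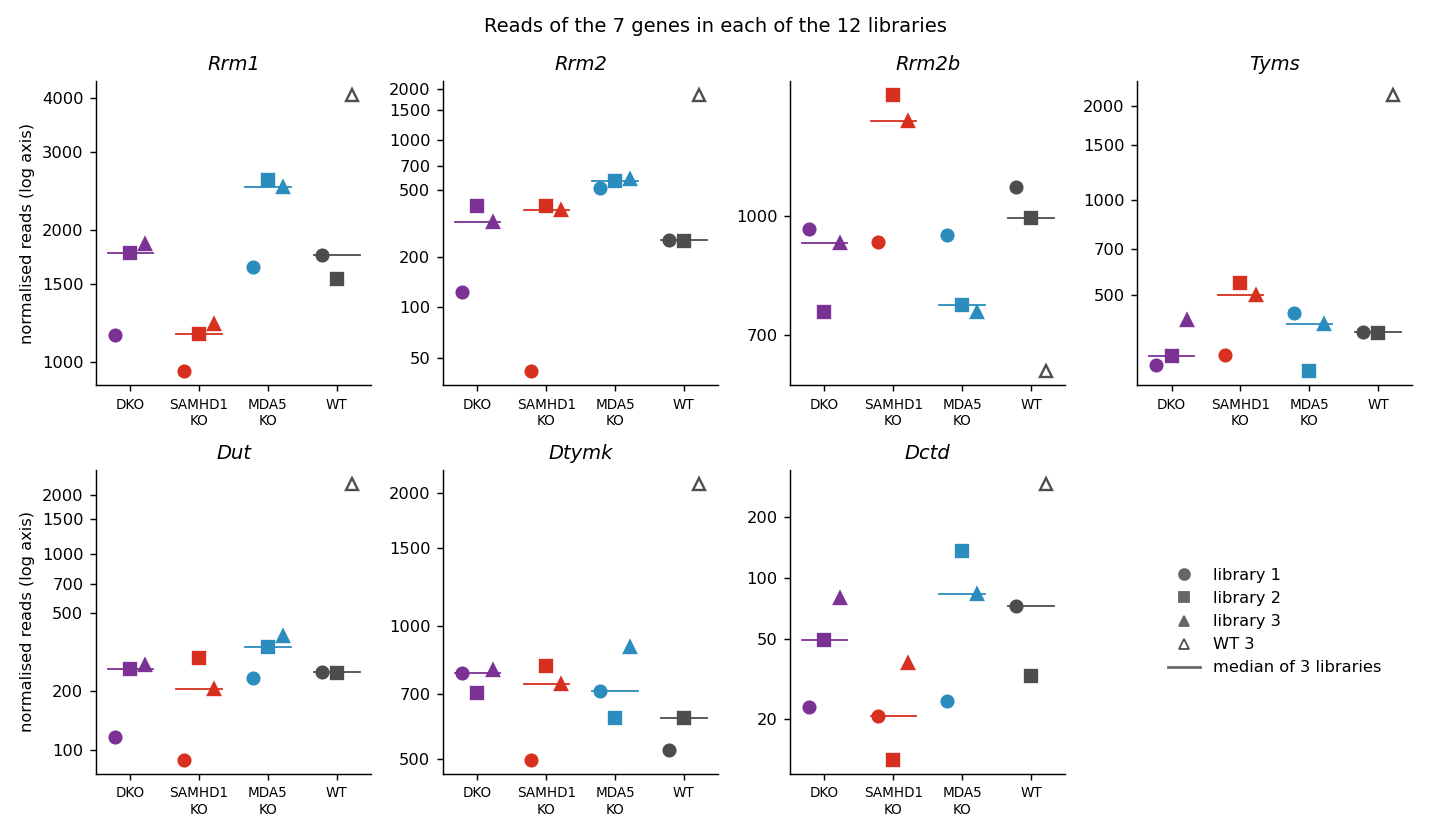
Normalised reads (log10 axis) of the 7 members in each of the 12 libraries, by genotype (DKO is SAMHD1 MDA5 DKO). Circles, squares and triangles are libraries 1, 2 and 3, the open triangle is WT 3, and lines are the median of 3; WT 3 is the highest library for 6 members and the lowest for Rrm2b.

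Levels can be compared between genes only per length, and so the small subunits were set side by side as normalised reads per kilobase of gene length. The deposited gene lengths were used, 11012 bases for Rrm1, 2771 for Rrm2 and 6437 for Rrm2b. Whether the transcripts present have these lengths was not tested, and the side of 1 on which a ratio falls depends on them. It also depends on how reads matching both Rrm2b and the pseudogene Gm3362 were assigned, which was not tested. The ratio of Rrm2b to Rrm2 was 3.34, 0.802 and 1.23 in SAMHD1 MDA5 DKO, while SAMHD1 KO had 9.57, 1.54 and 1.49. It was 0.791, 0.584 and 0.552 in MDA5 KO, while WT had 1.85, 1.70 and 0.146. Rrm2b thus exceeded Rrm2 in 7 libraries, among them all 3 of SAMHD1 KO, and Rrm2 exceeded Rrm2b in 5, among them all 3 of MDA5 KO. The ratio was lowest in WT 3 and highest in SAMHD1 KO 1. The sum of both small subunits varied less, with 194, 261 and 260.1 per kilobase in the libraries of SAMHD1 MDA5 DKO, and SAMHD1 KO at 159, 368 and 344. MDA5 KO stood at 332, 323 and 328, beside WT at 260.4, 245 and 767. In MDA5 KO the sum was nearly the same in the 3 libraries, and SAMHD1 KO 2 and 3 came close above it with a different make-up, more Rrm2b and less Rrm2. The ratio of Rrm1 to that sum was 0.538, 0.615 and 0.646 in SAMHD1 MDA5 DKO, while SAMHD1 KO had 0.544, 0.286 and 0.322. MDA5 KO had 0.449, 0.729 and 0.694, beside 0.609, 0.572 and 0.480 for WT. Its lowest values were those of SAMHD1 KO 2 and 3.

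**Figure D2:**
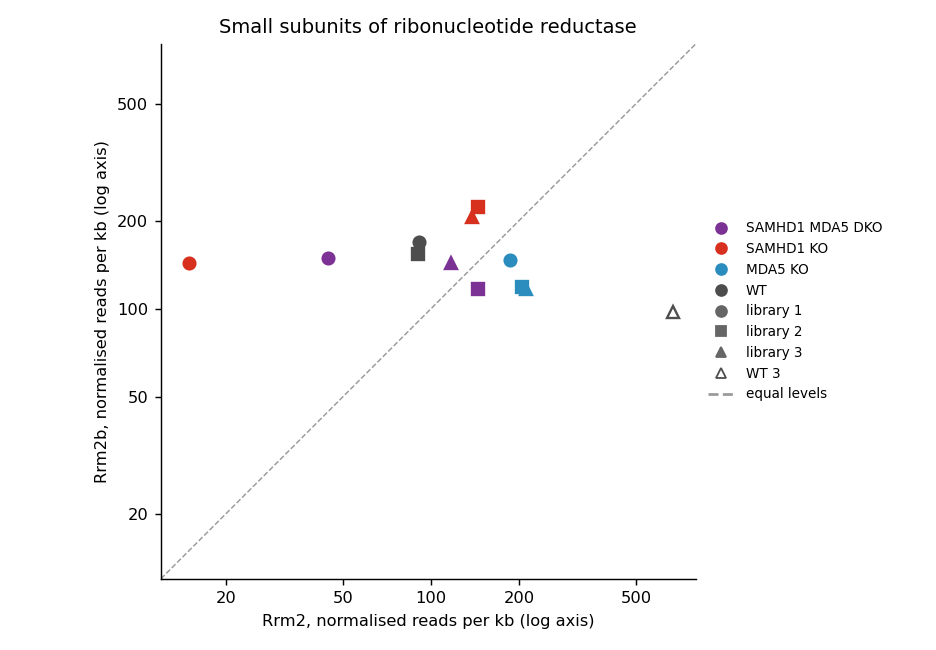
Rrm2b against Rrm2 in normalised reads per kilobase of deposited gene length, both on log10 axes, 1 point per library, with the dashed line at equal levels. The 3 SAMHD1 KO libraries lie on the Rrm2b side of the line and the 3 MDA5 KO libraries and WT 3 (open triangle) on the Rrm2 side, the ratio of Rrm2b to Rrm2 running between 0.146 and 9.57.

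Tyms (ENSMUSG00000025747, chromosome 5, 30058202 to 30073617, minus strand) encodes thymidylate synthase, the enzyme that makes dTMP. It had 299, 319.9 and 417 normalised reads in SAMHD1 MDA5 DKO. The SAMHD1 KO libraries held 323, 545 and 499. In MDA5 KO it stood at 439.6, 286 and 403, and in WT at 381, 378 and 2163. Apart from WT 3, which held 5.70 times the mean of the other WT libraries, the 4 genotypes overlapped over a narrow range. SAMHD1 KO minus WT was -0.61 ± 0.54 (SE; limma adjusted p = 0.537), and 0.24 ± 0.27 without WT 3. For SAMHD1 MDA5 DKO minus WT it was -0.99 ± 0.54 (limma adjusted p = 0.234), and -0.15 ± 0.27 without WT 3. By group mean it stood at 345 ± 62.7 in SAMHD1 MDA5 DKO, 456 ± 117 in SAMHD1 KO, 376 ± 80.2 in MDA5 KO and 974 ± 1029.8 in WT (SD, n = 3 each).

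Dut (ENSMUSG00000027203, chromosome 2, 125247190 to 125258608, plus strand) encodes dUTPase, which supplies dUMP and keeps uracil out of DNA. It had 117, 258 and 272 normalised reads in SAMHD1 MDA5 DKO. In the libraries of SAMHD1 KO it had 89.0, 293 and 205. In those of MDA5 KO it had 233, 335 and 379.8, and in WT 248, 245 and 2275. SAMHD1 MDA5 DKO 1 and SAMHD1 KO 1 were the lowest libraries, and WT 3 the highest at 9.22 times the mean of the other WT libraries, the widest gap of the 7 members. SAMHD1 KO minus WT was -1.56 ± 0.74 (SE; limma adjusted p = 0.331), and -0.49 ± 0.47 without WT 3. For SAMHD1 MDA5 DKO minus WT it was -1.35 ± 0.74 (limma adjusted p = 0.236), and -0.29 ± 0.47 without WT 3. By group mean it stood at 216 ± 85.8 in SAMHD1 MDA5 DKO, 196 ± 102 in SAMHD1 KO, 316 ± 75.4 in MDA5 KO and 923 ± 1171 in WT (SD, n = 3 each).

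Dctd (ENSMUSG00000031562, chromosome 8, 48099092 to 48153233, plus strand) encodes dCMP deaminase, the other source of dUMP, and was the member with the fewest reads, between 11 and 217 per library. It had 23.0, 49.4 and 80.0 normalised reads in SAMHD1 MDA5 DKO. With SAMHD1 alone knocked out it had 20.8, 12.6 and 37.9. With MDA5 alone knocked out it had 24.8, 136 and 83.5, and in WT 72.5, 32.9 and 293. MDA5 KO 2, with the 136, had reads in 25700 genes against 17783 to 21168 in the other libraries. Without it the difference of SAMHD1 MDA5 DKO minus MDA5 KO moved from -0.54 to -0.017. All 4 genotypes overlapped, with WT 3 the highest library and SAMHD1 KO 2 the lowest. SAMHD1 KO minus WT was -1.996 ± 0.82 (SE; limma adjusted p = 0.315), and -1.14 ± 0.74 without WT 3. By group mean it stood at 50.8 ± 28.5 in SAMHD1 MDA5 DKO, 23.8 ± 12.9 in SAMHD1 KO, 81.5 ± 55.7 in MDA5 KO and 133 ± 140.3 in WT (SD, n = 3 each).

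Dtymk (ENSMUSG00000026281, chromosome 1, 93792576 to 93801934, minus strand) encodes thymidylate kinase, which acts on dTMP from synthesis and from salvage alike. It had 782, 702 and 792 normalised reads in SAMHD1 MDA5 DKO. The SAMHD1 KO libraries held 496, 808 and 739. In MDA5 KO it stood at 712, 618 and 894, and in WT at 522, 617 and 2096. With WT 3 all genotypes overlapped, and without it the SAMHD1 MDA5 DKO and the MDA5 KO libraries lay above WT 1 and WT 2. Of all genes tested, 20.9% did so in SAMHD1 MDA5 DKO and 18.3% in MDA5 KO. SAMHD1 MDA5 DKO minus WT was -0.21 ± 0.42 (SE; limma adjusted p = 0.749) and 0.42 ± 0.23 without WT 3, and MDA5 KO minus WT was -0.26 ± 0.42 and 0.37 ± 0.23. By group mean it stood at 759 ± 49.0 in SAMHD1 MDA5 DKO, 681 ± 164 in SAMHD1 KO, 741 ± 140.0 in MDA5 KO and 1078.5 ± 882 in WT (SD, n = 3 each). Per kilobase of the deposited gene lengths, on which the order depends, Dtymk had the highest median level of the 7 over the 12 libraries, 276. Rrm1 (154), Rrm2b (145) and Rrm2 (142) followed, whose ranges over libraries overlapped, then Dut (105) and Tyms (64.4), and Dctd was the lowest with 12.8.

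SAMHD1 KO was set against WT to ask what the loss of SAMHD1 does to these genes while MDA5 is present. By limma 0 of 7 members passed the test, beside 0% of all genes tested, and 2 of 7 (Rrm1 and Dctd) had an unadjusted p under 0.05, beside 15.4%. With voom weights 0 passed as well, and without WT 3 limma passed 0 of 7, beside 0.00661%. The difference was negative for 6 members and positive for Rrm2b, with a median of -1.01 against 0.03 over all genes tested. Without WT 3 it was negative for 4 and positive for 3, with a median of -0.42. Rrm1 was the 1 member whose groups did not overlap, with WT 3 and without it, and 7.85% of all genes lay lower without overlap in the same way, 12.1% without WT 3. The deposited values of WT 3, SAMHD1 KO 2 and SAMHD1 MDA5 DKO 3 had been shifted as 1 set, so differences were also taken outside and inside it. Outside the set, SAMHD1 KO minus WT was -0.60 for Rrm1, -0.98 for Rrm2, 0.097 for Rrm2b, 0.086 for Tyms, -0.86 for Dut, 0.099 for Dtymk and -0.77 for Dctd. Inside the set, where it is SAMHD1 KO 2 minus WT 3, it was -1.81 for Rrm1, -2.20 for Rrm2, 1.19 for Rrm2b, -1.99 for Tyms, -2.95 for Dut, -1.37 for Dtymk and -4.43 for Dctd. The direction was the same on both sides for 5 members and opposite for Tyms and Dtymk. Inside the set it was fixed by WT 3, the highest library for 6 members and the lowest for Rrm2b. Any library set against WT 3 would give these signs, so this is no check of the direction.

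SAMHD1 MDA5 DKO was set against WT as the loss of both genes. By limma 0 of 7 members passed, beside 0.00661% of all genes (0.0463% without WT 3), and 0 of 7 had an unadjusted p under 0.05, beside 27.8%. All 7 differences were negative with WT 3, with a median of -0.95 against 0.07 over all genes. Without WT 3, 2 were positive and 5 negative, with a median of -0.11. In that case Dtymk lay higher and Rrm2b lower without overlap, which 20.9% and 21.8% of all genes did. Outside the shifted set the difference ranged between -0.52 for Dctd and 0.38 for Dtymk, and inside it, as SAMHD1 MDA5 DKO 3 minus WT 3, between -3.06 for Dut and 0.55 for Rrm2b. The macrophage marker sum, the S phase genes and these members all moved with WT 3, and their part in these differences was not tested.

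MDA5 KO minus WT shows the loss of MDA5 alone. By limma 0 of 7 members passed, beside 0.00661% of all genes (0.0132% without WT 3), and 0 of 7 had an unadjusted p under 0.05, beside 22.4%. With WT 3, 1 difference was positive and 6 were negative, with a median of -0.26 against 0.08 over all genes. Without WT 3, 5 were positive and 2 negative, with a median of 0.37. Rrm2 was 0.18 ± 0.88 (SE) with WT 3 and 1.13 ± 0.82 without it. Without WT 3 the MDA5 KO libraries lay above WT for Rrm2 and Dtymk, beside 18.3% of all genes, and below for Rrm2b, beside 18.7%. No MDA5 KO library was in the shifted set.

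SAMHD1 MDA5 DKO minus SAMHD1 KO and SAMHD1 KO minus MDA5 KO share the SAMHD1 KO libraries, so their values are given side by side and not as independent. In SAMHD1 MDA5 DKO minus SAMHD1 KO, 0 of 7 members passed in limma, beside 0.0132% of all genes (0.0397% without WT 3). An unadjusted p under 0.05 was reached by 0 of 7, beside 8.81%, and all groups overlapped. Its differences were 0.50 ± 0.34 (SE) for Rrm1, 0.44 ± 0.88 for Rrm2, -0.47 ± 0.25 for Rrm2b, -0.38 ± 0.54 for Tyms, 0.21 ± 0.74 for Dut, 1.03 ± 0.82 for Dctd and 0.18 ± 0.42 for Dtymk. Outside the shifted set Rrm1 was 0.40 and Rrm2b -0.39, and inside it, as SAMHD1 MDA5 DKO 3 minus SAMHD1 KO 2, Rrm1 was 0.68 and Rrm2b -0.64. In SAMHD1 KO minus MDA5 KO, 0 of 7 passed in limma, beside 0.00661% of all genes (0.317% without WT 3), and 2 of 7 (Rrm1 and Rrm2b) had an unadjusted p under 0.05, beside 9.53%. Rrm1 and Rrm2 lay lower in SAMHD1 KO than in MDA5 KO without overlap, beside 8.74% of all genes. The differences of the dTMP genes were 0.26 ± 0.54 for Tyms, -0.82 ± 0.74 for Dut, -1.57 ± 0.82 for Dctd and -0.14 ± 0.42 for Dtymk. Without SAMHD1 KO 1, Dut was -0.33 and Tyms 0.50, and without MDA5 KO 2 Tyms was 0.079.

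SAMHD1 MDA5 DKO minus MDA5 KO asks what the loss of SAMHD1 does when MDA5 is absent. By limma 0 of 7 members passed, beside 0% of all genes (0.00661% without WT 3), and 0 of 7 had an unadjusted p under 0.05, beside 1.02%. Rrm2 was the 1 member without overlap, lower in SAMHD1 MDA5 DKO, beside 4.1% of all genes. The other differences were -0.50 ± 0.34 (SE) for Rrm1, 0.10 ± 0.25 for Rrm2b, -0.12 ± 0.54 for Tyms, -0.61 ± 0.74 for Dut, -0.54 ± 0.82 for Dctd and 0.05 ± 0.42 for Dtymk. Without SAMHD1 MDA5 DKO 1, Rrm1 was -0.28, Dut -0.22 and Dctd -0.067, and without MDA5 KO 2 Dctd was -0.017. The interaction, this difference minus that of SAMHD1 KO minus WT, tests whether the loss of SAMHD1 acts alike with and without MDA5. By limma 0 of 7 members passed, beside 0% of all genes with WT 3 and without it, and 0 had an unadjusted p under 0.05, beside 3.21%. It was 0.51 ± 0.48 for Rrm1, 0.26 ± 1.25 for Rrm2, -0.36 ± 0.35 for Rrm2b, 0.49 ± 0.76 for Tyms, 0.95 ± 1.05 for Dut, 1.46 ± 1.16 for Dctd and 0.44 ± 0.59 for Dtymk. Without WT 3 it was 0.06 for Rrm1, -0.70 for Rrm2, -0.13 for Rrm2b, -0.35 for Tyms, -0.13 for Dut, 0.60 for Dctd and -0.19 for Dtymk, so 4 members took the other sign.

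**Figure D3:**
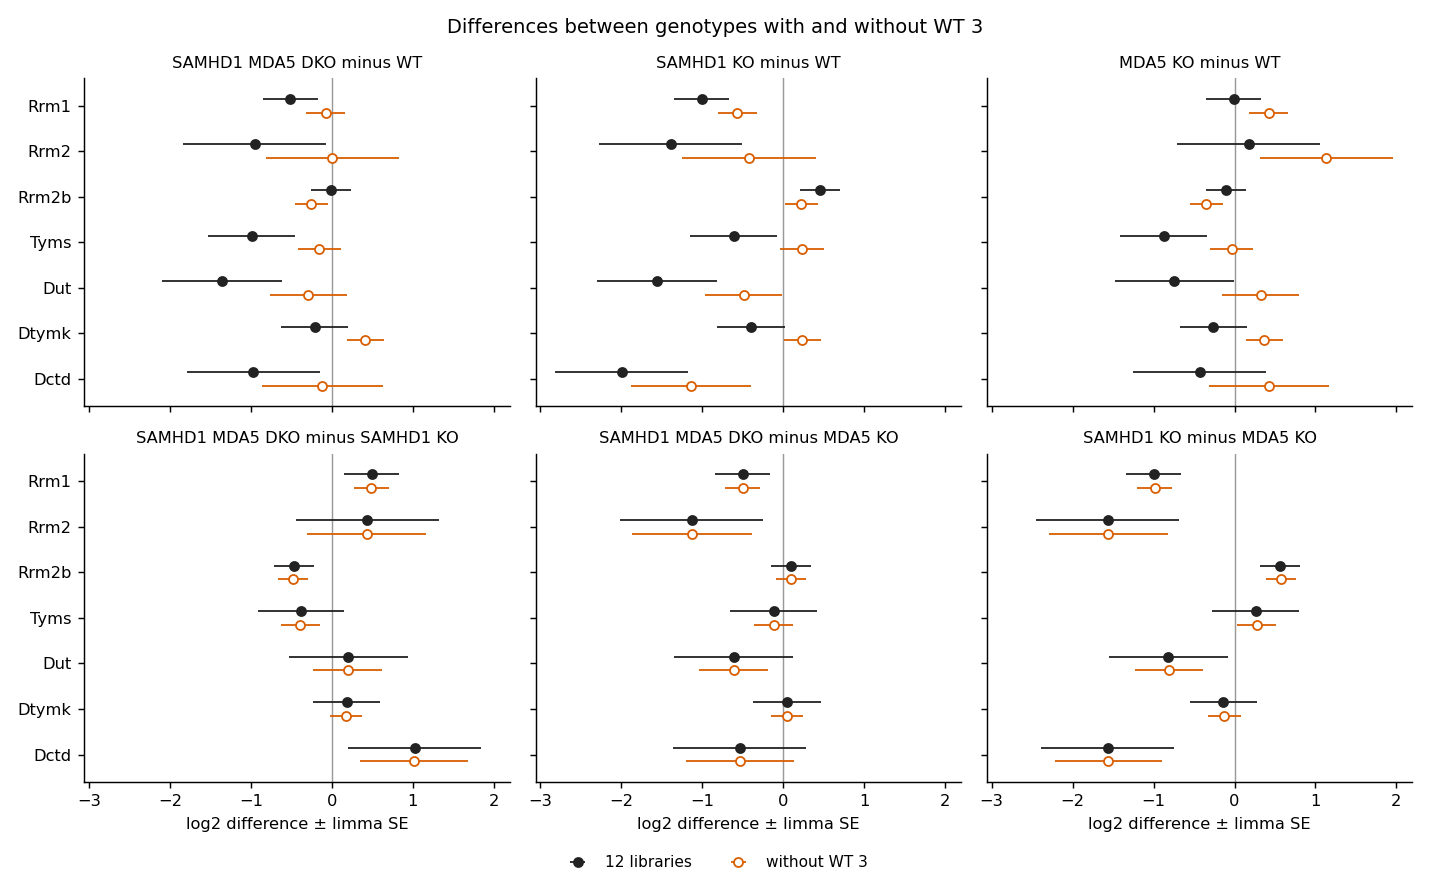
Log2 differences of the 7 members in the 6 comparisons, first-named genotype over second, with bars of 1 limma SE; filled black points use all 12 libraries and open orange points leave out WT 3. In the comparisons with WT the points shift with WT 3, for Dut in SAMHD1 KO minus WT between -1.56 and -0.49, and in the others they nearly coincide.

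SAMHD1 KO 1 was the lowest of the 12 libraries for Rrm1, Rrm2, Dut and Dtymk, and was the lowest in 5.92% of all genes. Differences were therefore also taken without both WT 3 and SAMHD1 KO 1, a choice made after seeing the data. In that fit Rrm2b fell by 0.67 in SAMHD1 MDA5 DKO against SAMHD1 KO (limma adjusted p = 0.00845), where 24.7% of all genes were called. Against MDA5 KO, Rrm2b in SAMHD1 KO rose by 0.77 (limma adjusted p = 0.00471) and Rrm1 fell by 0.88 (adjusted p = 0.0196), where 24.2% of all genes were called. In the other comparisons 0 of 7 members passed in limma, beside 2.43% of all genes in SAMHD1 KO minus WT, 1.96% in MDA5 KO minus WT, 7.5% in SAMHD1 MDA5 DKO minus WT, 0% in SAMHD1 MDA5 DKO minus MDA5 KO and 0.0198% for the interaction. Libraries 2 and 3 of SAMHD1 KO, which this leaves, are the closest of the 12 same-genotype pairs. Their median squared difference was 3.73 times that of counting noise, against 14.7 to 142 in the other pairs.

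In the authors' deposited table of each comparison, few members passed an adjusted p of 0.05. Dut was called in the authors' deposited table of SAMHD1 MDA5 DKO minus WT, at a log2 difference of -1.11 (adjusted p = 0.0406, beside 7.42% of all genes). It was called in the authors' deposited table of SAMHD1 KO minus WT as well, at -1.26 (adjusted p = 0.0454, beside 0.606%). Dut had 2275 normalised reads in WT 3, against 248 and 245 in WT 1 and WT 2. Without WT 3 its limma difference was -0.29 ± 0.47 (SE) in SAMHD1 MDA5 DKO minus WT and -0.49 ± 0.47 in SAMHD1 KO minus WT. Rrm2 was called in the authors' deposited table of MDA5 KO minus WT, at 0.92 (adjusted p = 0.00102, beside 2.17%), a table in which the deposited column of WT 3 is the mean of the other 5 libraries and carries no value of its own. Rrm1 was called in the authors' deposited table of MDA5 KO minus SAMHD1 KO, at 0.86 (adjusted p = 0.00885, beside 0.802%), where the same holds for SAMHD1 KO 2. In the authors' deposited tables of SAMHD1 MDA5 DKO minus SAMHD1 KO and SAMHD1 MDA5 DKO minus MDA5 KO 0 members were called, beside 1.83% and 0.159% of all genes.

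The other genes of the pathway were described by lists, none of whose genes passed limma over the 12 libraries in any of the 6 comparisons. Tk1, the thymidine kinase of cycling cells, which salvages thymidine to dTMP, had 79.4, 209 and 201 normalised reads in SAMHD1 MDA5 DKO, while SAMHD1 KO had 2.49, 241 and 270.2. MDA5 KO had 238, 365 and 428, beside 111, 156 and 1442 for WT. Its low library in SAMHD1 KO and its high one in WT were those of Rrm2, and SAMHD1 KO minus WT was -2.26 ± 1.39 (SE; limma adjusted p = 0.403). That difference was -1.11 without WT 3, and 0.96, with the other sign, without WT 3 and SAMHD1 KO 1. Mthfd1, a folate enzyme, was at -1.39 ± 0.42 in SAMHD1 KO minus MDA5 KO (limma adjusted p = 0.429).

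A second list held genes of the thioredoxin and glutaredoxin systems, of which Txn1, Txnrd1 and Glrx encode proteins of the cytosol, where the reductase is, and Txn2 and Glrx2 chiefly mitochondrial ones. All 5 differences were negative in SAMHD1 KO minus WT (4 of 5 without WT 3), while the other comparisons were mixed. Their median was -0.35 in SAMHD1 KO minus WT (-0.32 without WT 3), 0.28 in SAMHD1 MDA5 DKO minus SAMHD1 KO and -0.30 in SAMHD1 KO minus MDA5 KO, and 0 of 5 passed. Glrx, a glutaredoxin, was at -1.02 ± 0.35 (SE) in SAMHD1 KO minus WT (limma adjusted p = 0.312), and -0.55 without WT 3. Txnrd1, thioredoxin reductase, was at 0.70 ± 0.23 in SAMHD1 MDA5 DKO minus SAMHD1 KO (limma adjusted p = 0.562). In the supply of pyrimidine nucleotides 7 of 8 genes were tested (Cad, Dhodh, Umps, Ctps, Nme1, Nme2 and Cmpk1), and Ctps2 was not analysed here. Their median was -0.55 in SAMHD1 KO minus WT (-0.13 without WT 3), 0.25 in SAMHD1 MDA5 DKO minus SAMHD1 KO and -0.26 in SAMHD1 KO minus MDA5 KO. Cad, which starts pyrimidine synthesis, was at 1.04 ± 0.46 in SAMHD1 MDA5 DKO minus SAMHD1 KO (limma adjusted p = 0.562), and 1.57 without WT 3 and SAMHD1 KO 1. Nme2, a nucleoside diphosphate kinase, was at -1.05 ± 0.37 in SAMHD1 MDA5 DKO minus WT (limma adjusted p = 0.128), and -0.62 without WT 3.

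Among 14 regulators of the subunits (E2F factors, the ubiquitin ligase parts Ccnf, Fzr1 and Skp2, p53 and checkpoint kinases), 13 differences were positive in SAMHD1 MDA5 DKO minus SAMHD1 KO (median 0.43) and 13 negative in SAMHD1 KO minus MDA5 KO (median -0.63). In MDA5 KO minus WT, 10 were positive (median 0.45), and 13 without WT 3 (median 0.52). E2f2, an activator of S phase genes, was at -2.45 ± 0.67 (SE) in SAMHD1 KO minus WT (limma adjusted p = 0.312), -1.89 without WT 3 and -1.38 without WT 3 and SAMHD1 KO 1. Atr, the replication stress kinase, was at 0.89 ± 0.26 in MDA5 KO minus WT (limma adjusted p = 0.196), and 0.72 without WT 3. Of 16 S phase genes, 15 were positive in SAMHD1 MDA5 DKO minus SAMHD1 KO (median 0.83) and all 16 negative in SAMHD1 KO minus MDA5 KO (median -1.52) and in SAMHD1 MDA5 DKO minus MDA5 KO (median -0.61). In SAMHD1 KO minus WT, 15 of them were negative, with a median of -1.12, and -0.44 without WT 3. Mki67, a marker of cycling cells, was at 1.72 ± 0.49 in MDA5 KO minus WT (limma adjusted p = 0.196), and 1.73 without WT 3. Ccne1, a G1 cyclin, was at -2.55 ± 0.98 in SAMHD1 KO minus WT (limma adjusted p = 0.312), and -1.75 without WT 3.

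The lists depended on SAMHD1 KO 1 as well. Without WT 3 and SAMHD1 KO 1, 11 of the 16 S phase genes were positive in SAMHD1 MDA5 DKO minus SAMHD1 KO (median 0.37) and 14 negative in SAMHD1 KO minus MDA5 KO (median -0.81). In SAMHD1 KO minus WT, 9 of them were then negative and 7 positive (median -0.038). Of the 14 regulators 11 were positive (median 0.34) in SAMHD1 MDA5 DKO minus SAMHD1 KO and 13 were negative (median -0.74) in SAMHD1 KO minus MDA5 KO. In that fit limma called 7 of 16 S phase genes and 7 of 14 regulators lower in SAMHD1 KO than in MDA5 KO, where 24.2% of all genes were called in either direction. Of the 5 thioredoxin and glutaredoxin genes 1 was called higher and 2 lower there, and of the 7 pyrimidine genes 1 was called higher and 1 lower. In SAMHD1 MDA5 DKO minus SAMHD1 KO, where 24.7% of all genes were called, 4 of 14 regulators were called higher and 0 of 16 S phase genes were called. Of the thioredoxin and glutaredoxin genes 1 was called higher and 1 lower, and of the pyrimidine genes 1 higher and 2 lower. In each of the other comparisons at most 1 gene of any of these 4 lists was called.

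Each member was set against the mean log2 level of those 16 S phase genes. That mean was 8.45, 9.46 and 9.64 in SAMHD1 MDA5 DKO, while SAMHD1 KO had 7.12, 8.93 and 8.85. MDA5 KO had 9.47, 9.89 and 10.02, beside 8.85, 8.86 and 10.78 for WT. SAMHD1 KO 1 was the lowest and WT 3 the highest, as for Rrm1, Rrm2 and Dut. Pearson's r of the log2 levels over the 12 libraries was 0.91 for Rrm1, 0.95 for Rrm2, 0.86 for Dut, 0.76 for Dctd, 0.71 for Dtymk, 0.55 for Tyms and -0.55 for Rrm2b. Over the 11 libraries without WT 3 it was 0.87 for Rrm1, 0.93 for Rrm2, 0.90 for Dut, 0.63 for Dctd, 0.58 for Dtymk, 0.13 for Tyms and -0.37 for Rrm2b. These describe points that share library and genotype, and are given without a test.

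**Figure D4:**
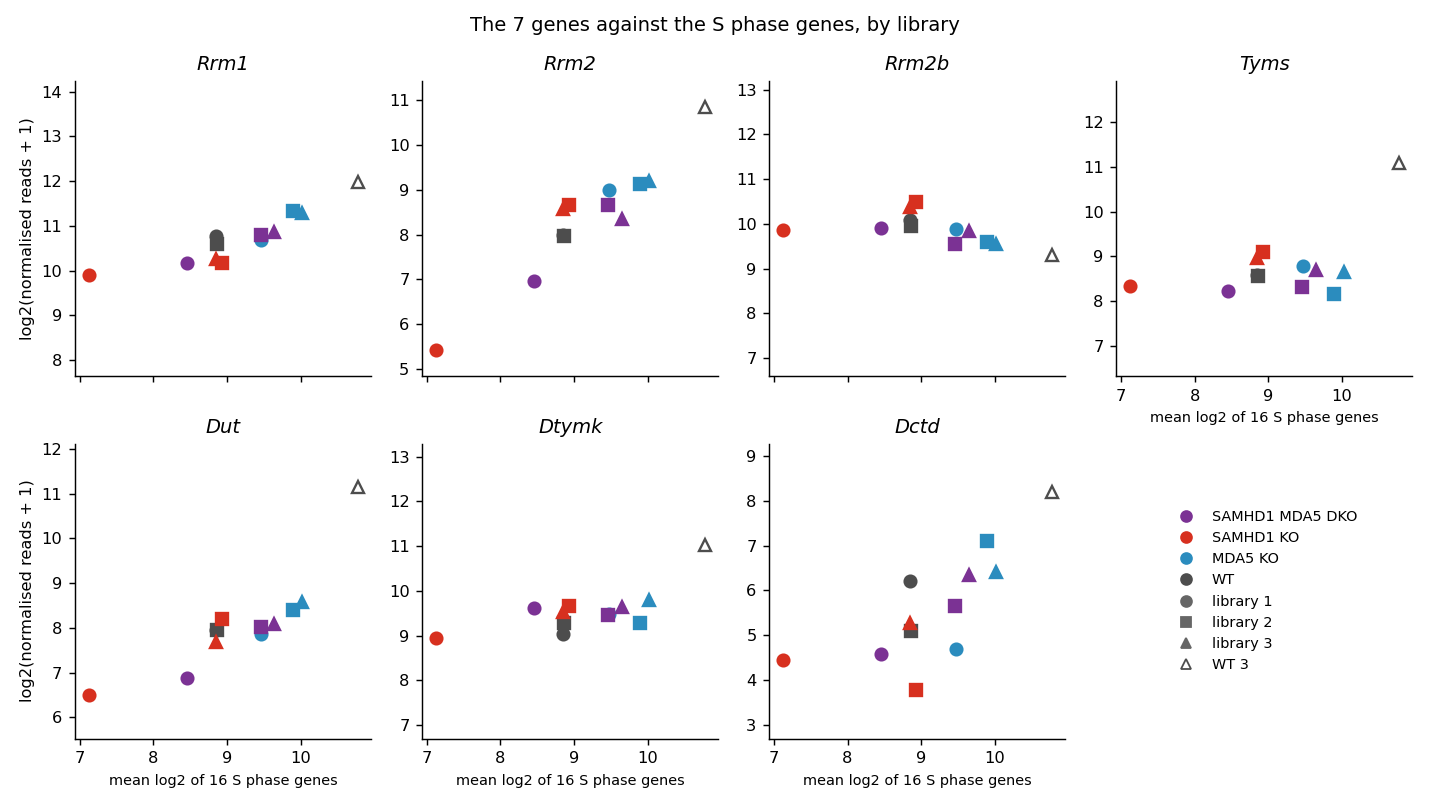
Log2 level of each member (y axis) against the mean log2 level of 16 S phase genes (x axis), 1 point per library, coloured by genotype, with WT 3 as the open triangle. Rrm1, Rrm2 and Dut run along the S phase mean over the libraries (r of 0.91, 0.95 and 0.86). Tyms has an r of 0.55 over the 12 libraries and 0.13 without WT 3, and Rrm2b -0.55 and -0.37.

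Mki67 and Rrm2 did not keep 1 ratio. Mki67 had 769.7, 1551 and 1575 normalised reads in SAMHD1 MDA5 DKO, while SAMHD1 KO had 279, 1279 and 1327. MDA5 KO had 2350.1, 2262 and 2019, beside 612, 722 and 672 for WT. The ratio of Rrm2 to Mki67 in normalised reads was 0.161, 0.259 and 0.206 in SAMHD1 MDA5 DKO, while SAMHD1 KO had 0.149, 0.314 and 0.288. For MDA5 KO it was 0.219, 0.2496 and 0.290, beside 0.413, 0.347 and 2.76 for WT. WT 3 thus had much Rrm2 with a level of Mki67 like that of the other WT libraries. All 3 WT ratios lay above the other 9 libraries, but how often ratios of other genes do so was not taken. In WT 1 and WT 2, Rrm2 itself (253 and 251 normalised reads) lay within the range of the other genotypes.

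Between the members themselves, r over the 12 libraries was 0.83 for Rrm1 and Rrm2 (0.72 without WT 3) and -0.75 for Rrm1 and Rrm2b (-0.64). It was 0.89 for Rrm2 and Dut (0.92 without WT 3) and 0.92 for Rrm1 and Dctd (0.87). Tyms and Dtymk had 0.89 with WT 3 and 0.42 without it, and Tyms and Rrm2b had -0.25 with WT 3 and 0.73 without it. Tyms thus ran with Rrm2b and not with Rrm1 (r of -0.20) in the 11 libraries without WT 3. The genes most like Rrm1 among all genes tested, by r over the 12 libraries, were Fen1 (0.98), Mcm5 (0.97) and Tmem238 (0.97). Those most like Rrm2 were Pbk, Melk and Gm11223 (0.98 each). Those most like Rrm2b were Ggps1 (0.95), Nt5e (0.94) and Aaed1 (0.94). Without WT 3 these values stood between 0.92 and 0.98.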

How the data were processed

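RNA-seq libraries of untreated peritoneal macrophages of 4 genotypes, 3 libraries each, were analysed. The deposited library columns hold log2 values. Per the labels' protocols and the submitters' processing notes, mm10 and GRCm38 were the builds, and STAR, Salmon, DESeq2 and R 4.1.2 were named without roles. The deposited log2 fold changes, p-values and adjusted p-values of each comparison are the authors' own. Tested on the values, the deposited log2 columns were variance-stabilised and had the mean difference between a set of libraries (WT 3, SAMHD1 KO 2 and SAMHD1 MDA5 DKO 3) and the others taken out within each table. A set library that stood alone in a table was thereby the mean of the other 5 libraries. Whole reads were solved from the log2 columns and the deposited base mean, a signal the authors normalised by size factors, for 100% of the genes of all 6 tables, within 0.05 reads. Those reads entered the fits.

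The main test was limma 3.58.1 in R 4.3.3 (trend, robust) on log2(reads divided by the median-of-ratios size factor + 1), with genotype as the 1 factor over all 12 libraries and Benjamini-Hochberg adjustment at 0.05. A gene was kept at a CPM of 0.228 (10 reads at median depth) in 3 libraries or more, which left 15130. Count models were not used, since the reads were solved and not given as counts. The fit was tested on simulated data. Each library was left out in turn, and other scalings, filters, pseudocounts, voom weights, a replicate block and terms for the shifted set were tried. The replicate numbers were not used to pair the libraries in the main test. All 7 members are named whatever their values, with the genes of largest and smallest mean difference of each pathway list, and the 3 genes most like each reductase subunit. The members and lists were chosen with earlier results of these data known. The counts and medians of 1 pathway list are not reported here. Python 3.11.15, numpy 2.4.6 and matplotlib 3.10.9 drew the figures.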

Additional observations from a re-analysis of the deposited data

How the results depend on the processing

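Each left-out library gave a value for every member and comparison, 588 in all. No member passed there, 558 kept their direction, 115 of them at a value moved by over 1.5 times, and the lowest limma adjusted p was 0.0780. Under the other settings (434 values) 390 kept direction and side of the threshold, 41 reversed and 3 passed, the last all without WT 3 and SAMHD1 KO 1. Of the 30 reversals with 1 library left out, 12 came without WT 3, 5 without SAMHD1 KO 1 and 3 each without WT 1 and MDA5 KO 1. Ranges over left-out libraries of the members that reversed were, in SAMHD1 KO minus WT, -1.03 to 0.24 for Tyms and -0.77 to 0.24 for Dtymk. In MDA5 KO minus WT they were -0.27 to 0.42 for Rrm1, -0.30 to 1.13 for Rrm2, -0.35 to 0.046 for Rrm2b, -1.28 to 0.32 for Dut, -0.63 to 0.37 for Dtymk and -1.13 to 0.42 for Dctd. In SAMHD1 MDA5 DKO minus WT they were -1.43 to 0.0066 for Rrm2, -0.25 to 0.14 for Rrm2b and -0.59 to 0.42 for Dtymk. In SAMHD1 MDA5 DKO minus SAMHD1 KO they were -0.63 to 0.99 for Rrm2, -0.28 to 0.60 for Dut and -0.028 to 0.32 for Dtymk. Against MDA5 KO they were -0.30 to 0.0095 for Tyms and -0.072 to 0.19 for Dtymk in SAMHD1 MDA5 DKO, and -0.28 to 0.077 for Dtymk in SAMHD1 KO. For the interaction they were -0.80 to 0.81 for Rrm2, -0.35 to 0.91 for Tyms, -0.13 to 1.48 for Dut and -0.19 to 0.82 for Dtymk.

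Without both WT 3 and SAMHD1 KO 1, the reversed values of SAMHD1 KO minus WT were 0.65 for Rrm2, 0.47 for Tyms, 0.00068 for Dut and 0.45 for Dtymk. Those of MDA5 KO minus WT were 0.42 for Rrm1, 0.32 for Dut, 0.37 for Dtymk and 0.42 for Dctd, and those of SAMHD1 MDA5 DKO minus WT 0.0060 for Rrm2 and 0.41 for Dtymk. SAMHD1 MDA5 DKO minus SAMHD1 KO gave -0.64 for Rrm2, -0.29 for Dut and -0.039 for Dtymk, SAMHD1 KO minus MDA5 KO 0.086 for Dtymk, and the interaction -0.045 for Rrm1, -1.78 for Rrm2, -0.58 for Tyms, -0.61 for Dut and -0.41 for Dtymk. In the 9 libraries outside the shifted set, SAMHD1 KO minus WT was 0.086 for Tyms and 0.099 for Dtymk, MDA5 KO minus WT 0.42 for Rrm1, 0.32 for Dut, 0.36 for Dtymk and 0.42 for Dctd, and SAMHD1 MDA5 DKO minus WT 0.38 for Dtymk. There the interaction was -0.024 for Rrm1, -0.33 for Rrm2, -0.34 for Tyms, -0.083 for Dtymk and -0.17 for Dctd. With a term for that set, MDA5 KO minus WT was 0.19 for Rrm1 and 0.0059 for Dtymk, SAMHD1 MDA5 DKO minus MDA5 KO -0.22 for Dtymk, SAMHD1 KO minus MDA5 KO -0.11 for Tyms, and the interaction -0.30 for Rrm2. In the deposited columns as they stand, MDA5 KO minus WT was 0.32 for Rrm1, 0.19 for Dut, 0.25 for Dtymk and 0.18 for Dctd. With TMM scaling, SAMHD1 MDA5 DKO minus WT was 0.029 for Rrm2b. The cause of these reversals was not tested.

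Over all genes limma called 0 in SAMHD1 KO minus WT, 1 in MDA5 KO minus WT, 1 in SAMHD1 MDA5 DKO minus WT, 2 in SAMHD1 MDA5 DKO minus SAMHD1 KO, 0 in SAMHD1 MDA5 DKO minus MDA5 KO, 1 in SAMHD1 KO minus MDA5 KO and 0 for the interaction. In the same order, leaving out 1 library gave 0 to 2, 0 to 5, 0 to 1783, 0 to 134, 0 to 1, 0 to 176 and 0 calls, with 1783 reached without WT 1, and 134 and 176 without SAMHD1 KO 1. Leaving out WT 3 and SAMHD1 KO 1 gave 367, 297, 1135, 3731, 0, 3660 and 3. The deposited columns gave 2, 0, 1223, 8, 0 and 0, the 9 libraries outside the shifted set 1, 0, 1, 0, 2 and 21, and the term for that set 0, 0, 9, 2, 0 and 11. MDA5 KO minus WT gave 0 calls and SAMHD1 MDA5 DKO minus SAMHD1 KO 0 calls with TMM scaling, with a pseudocount of 0.5 and with voom weights, and without a filter on low values SAMHD1 MDA5 DKO minus SAMHD1 KO gave 0 and SAMHD1 KO minus MDA5 KO 5. Voom weights gave 0 in SAMHD1 MDA5 DKO minus WT and in SAMHD1 KO minus MDA5 KO.

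Same-numbered libraries had correlations of their deviations between -0.057 and 0.337, over 0.1 in 8 of 18 pairs and at or under it in 10. Whether the numbers pair the libraries is thus not settled, and the main test did not pair them. With the replicate number as a block, 0 genes were called in all comparisons but SAMHD1 KO minus MDA5 KO, which had 2, and no member passed or reversed. Dctd, with 11 to 217 reads a library, had the fewest reads, but same-genotype libraries differed over all genes by 3.73 to 142 times counting noise.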
